A study of Nasonia vitripennis with 6 samples.

Results

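The genes described here are those of *Nasonia vitripennis* whose deposited annotation contains the word vitellogenin, lipophorin or yolk, that is, the yolk and lipid carrier proteins of insect blood and the receptor that takes yolk protein into the egg. They number 10 of the 36329 genes in the table and comprise 5 annotated as vitellogenin, 4 as apolipophorin and 1 as vitellogenin receptor. No annotation contained the word yolk, none named a lipophorin receptor, and 0 of the 10 are among the 79 venom protein encoding genes that the study listed. The study compared the venom gland (VG) with the ovary in mated, host exposed females of strain Lab II, 1 to 3 days old. RNA of each tissue was sequenced in 3 libraries, and each library was made from dissected tissue pooled from 40 to 50 individuals. The paper reports a lower mapping rate for a VG replicate, which it ascribes to more ribosomal RNA reads, with its other quality measures unremarkable. The values are mean normalised counts over the 3 libraries of a tissue, which are read counts divided by a size factor for each library and not by gene length, so the comparisons are of the same gene between tissues, except in the search for the genes with the nearest means at the end. Estimated as the summed tissue means times each size factor, which assumes equal normalised totals in the libraries of a tissue, reads on genes came to between 15826324 and 28934210 per VG library and between 24519349 and 27549194 per ovary library.

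Vitellogenin is the precursor of the main yolk protein of insect eggs. In most insects it is made by the fat body, released into the haemolymph and taken up by the growing oocyte through the vitellogenin receptor, a member of the low-density lipoprotein receptor family, in clathrin-coated vesicles. Lipophorin is the particle that carries lipid through the haemolymph. Apolipophorins I and II are cut from a common precursor and form its protein core, while apolipophorin III is a small protein that binds to the particle when it is loaded with lipid.

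The marker genes separated the tissues by their labels. Of 16 germ line markers with a mean of at least 10 in either tissue, 0 were at least 4-fold higher in the VG while 12 were so in the ovary, and their summed VG means were 4.70% of their summed ovary means. The list took in genes annotated only with the word tudor. Oskar (Nasvi2EG013571), which assembles the germ plasm, had a mean of 8.25 in the VG and 5422 in the ovary. Of 76 venom protein encoding genes that passed the same minimum, 71 were at least 4-fold higher in the VG and 1 in the ovary, and the 79 together took 53.1% of the summed VG means and 0.195% of the summed ovary means. The deposited means carry the authors' size factors, and scaling the tissues to totals without the 79 genes moves every log2 fold change by −1.28. Lower RNA levels per cell and fewer cells of the type that makes an RNA cannot be told apart in these dissected tissues.

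Of the 8 carriers with reads, 6 were at least 4-fold higher in the VG, while Vitellogenin-5 and the receptor were at least 4-fold higher in the ovary. Of the 9 genes with reads, all of which reached a mean of at least 10 in a tissue, 6 were at least 4-fold higher in the VG, 2 were at least 4-fold higher in the ovary and 1 lay between. Over all 11382 genes that reached that mean, 22.7% were at least 4-fold higher in the VG and 19.3% at least 4-fold higher in the ovary. The 8 carriers with reads had a median log2 fold change (VG over ovary) of 3.98, against −0.12 for all genes, and the receptor had −6.51. The 6 genes higher in the VG were 3 of the 5 vitellogenins and all 3 apolipophorins with reads. With totals that leave out the venom protein encoding genes, 5 were at least 4-fold higher in the VG and 3 in the ovary, beside 14.0% and 39.1% of all genes under that scaling. The table holds a mean for each tissue and no value for each library, so no test between the tissues was made on these counts.

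**Figure D1:**
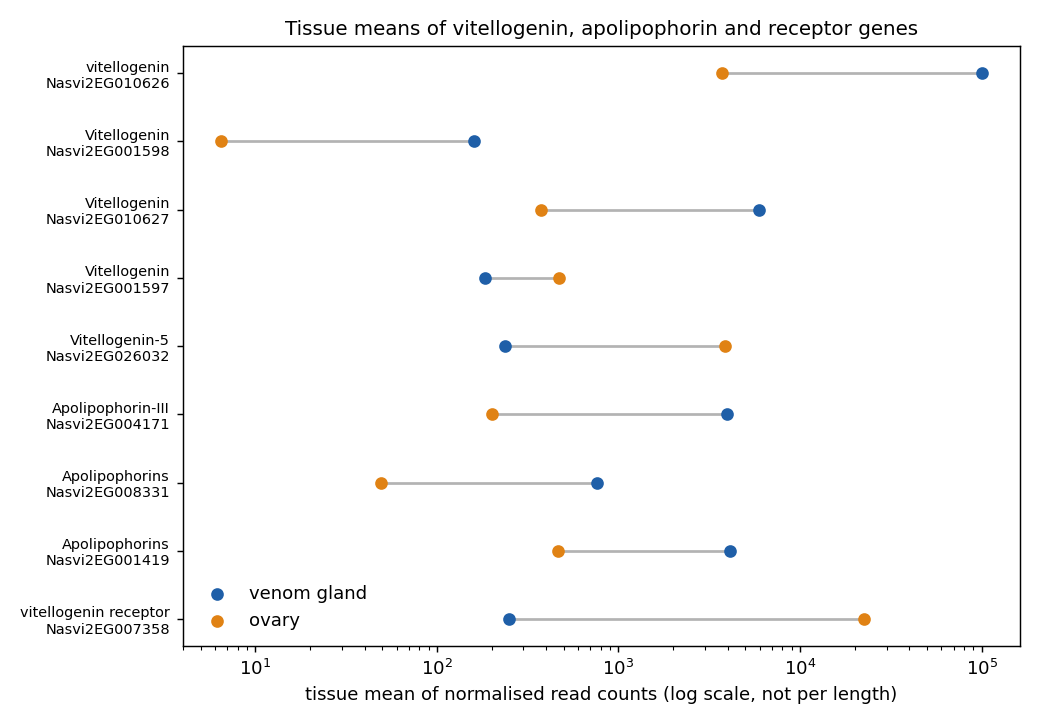
Mean normalised counts (log scale, not divided by gene length) in the VG (blue) and the ovary (orange) of the 9 genes with reads, each point a mean over 3 libraries without an error bar. Vitellogenin Nasvi2EG010626 stands at 100996 in the VG and 3710 in the ovary, and the vitellogenin receptor at 248 in the VG and 22643 in the ovary.

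**Figure D2:**
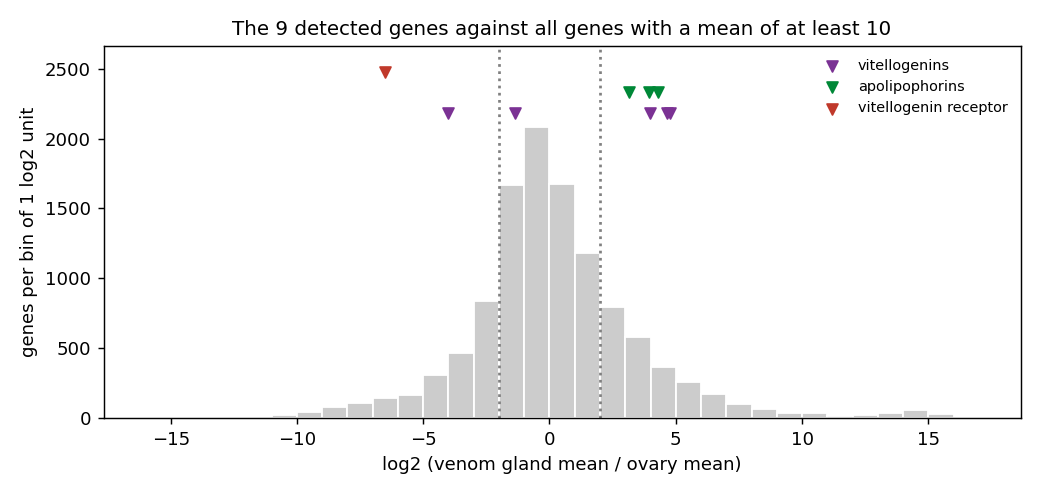
Number of genes in each bin of 1 unit of log2 fold change (VG over ovary) for the 11382 genes that reached a mean of 10 in a tissue, with triangles at the values of the 9 genes described here and dotted lines at 4-fold. The 3 apolipophorins lie between 3.15 and 4.32, and the vitellogenin receptor lies at −6.51.

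Among the yolk precursors, 3 of the 5 vitellogenins were higher in the VG. Nasvi2EG010626, annotated as vitellogenin, had a mean of 100996 in the VG and 3710 in the ovary, a 27.2-fold difference (log2 fold change 4.77). It took 0.183% of the summed VG means and 0.0348% of the summed ovary means. Nasvi2EG010627, which carries the next number in the gene set, had a mean of 5955 in the VG and 373 in the ovary, a 16.0-fold difference. Both lay above 4-fold also when the venom protein encoding genes were left out of the totals, at 3.49 and 2.72 on the log2 scale. Whether these neighbouring numbers stand for separate genes or for parts of the same gene was not analysed here.

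The low means are whole combinations of the reads of 3 libraries, so for some genes the reads of each library could be recovered. They are called libraries a, b and c of a tissue, since they cannot be tied to the replicate numbers. VG library c had the smallest size factor of the VG libraries, at 0.287. Whether it is the replicate with the lower mapping rate was not tested. Nasvi2EG001598, a vitellogenin, had 84, 85 and 38 reads in the VG libraries, and 11, 33 and 4 reads in the ovary libraries. As normalised counts these were 160.1, 189 and 132 in the VG, with a mean of 160.4 ± 28.2 (SD, n = 3), and 4.26, 13.4 and 1.74 in the ovary, with a mean of 6.45 ± 6.11 (SD, n = 3). Every VG library lay above every ovary library, and the log2 fold change was 4.64. A two-sided exact permutation test gave p = 0.1, the smallest value that this test can give for 3 libraries against 3, so it cannot reach 0.05 here.

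Ovary library b had the highest value of this vitellogenin among the ovary libraries, and without it the log2 fold change was 5.74. In the same library, the 62 venom protein encoding genes with recovered reads summed to 1252 normalised counts, against 891 in library a and 751 in library c. The sum of 12 muscle markers was also highest there, at 182, against 103 in library a and 95.2 in library c. The excess lay in myosin light chain alkali (Nasvi2EG008304), at 18.6, 65.2 and 18.7 in libraries a, b and c, and troponin C (Nasvi2EG002564). The latter had 7.35, 45.3 and 10.4, and the VG means of these genes were 1120 and 1047. A titin gene (Nasvi2EG016089) was instead highest in library a, at 60.8, 53.4 and 50.4, so the list as a whole was not raised in library b. The sums of 8 hexamerins, storage proteins made by the fat body, were 52.2, 73.7 and 73.5 in ovary libraries a, b and c. The part of other tissues in the ovary values of this gene was not tested.

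The other vitellogenins were higher in the ovary. Nasvi2EG026032, annotated as Vitellogenin-5, had 126, 103 and 70 reads in the VG libraries, which gave normalised counts of 240.2, 229 and 244 and a mean of 238 ± 7.94 (SD, n = 3), against an ovary mean of 3862. The difference was 16.3-fold (log2 fold change −4.02), and the VG libraries were within 1.07-fold of each other. Nasvi2EG001597, which carries the number before that of Nasvi2EG001598, had 101, 124 and 25 reads in the VG libraries, or normalised counts of 193, 275 and 87.1, with a mean of 185 ± 94.3 (SD, n = 3). Its ovary mean was 470.5, and each VG library lay below that mean. The log2 fold change of −1.35 was under 4-fold, but reached −2.63 when the totals left out the venom protein encoding genes. The vitellogenins with neighbouring numbers thus differed in direction, at 4.64 for Nasvi2EG001598 and −1.35 for Nasvi2EG001597.

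**Figure D3:**
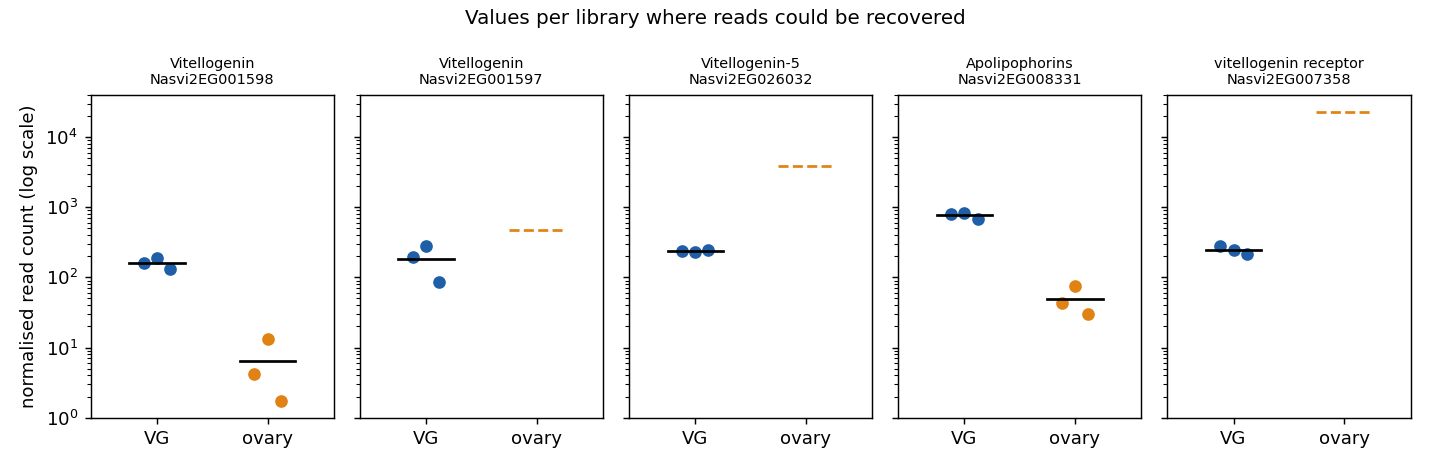
Normalised counts (log scale) in each library for the 5 genes whose VG reads could be recovered, with VG libraries a to c in blue and ovary libraries a to c in orange from left to right, black lines at the tissue means, and a dashed orange line where only the ovary mean is known. VG and ovary libraries do not overlap for Nasvi2EG001598 and Nasvi2EG008331, and the 3 VG values of Nasvi2EG001597 run from 87.1 to 275.

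All 3 apolipophorins with reads were higher in the VG. Nasvi2EG004171, annotated as a putative apolipophorin III, the exchangeable apolipophorin, had a mean of 3983 in the VG and 200.1 in the ovary (log2 fold change 4.32). Nasvi2EG001419, annotated as apolipophorins, the name of the precursor that is cut into apolipophorins I and II, had a mean of 4131 in the VG and 464 in the ovary, an 8.90-fold difference. Its log2 fold change of 3.15 became 1.87, under 4-fold, when the totals left out the venom protein encoding genes.

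Nasvi2EG008331, also annotated as apolipophorins, had 415, 368 and 196 reads in the VG libraries, and 111, 184 and 69 reads in the ovary libraries. The normalised counts were 791, 817 and 683 in the VG (mean 764 ± 71.1, SD, n = 3) and 43.0, 74.5 and 30.004 in the ovary (mean 49.2 ± 22.9, SD, n = 3). The libraries of the tissues did not overlap, the log2 fold change was 3.96, and the two-sided exact permutation test gave p = 0.1, again the smallest value possible. Ovary library b was the highest ovary library for this gene too, and the log2 fold change without it was 4.39. Nasvi2EG014203, the remaining gene annotated as apolipophorins, was listed at 0 in both tissues. A gene annotated as clathrin light chain (Nasvi2EG010818), a protein that cells in general use, was also listed at 0 in both, so no level is read from such a value.

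The vitellogenin receptor, Nasvi2EG007358, had 149, 110 and 62 reads in the VG libraries, or normalised counts of 284, 244 and 216 with a mean of 248 ± 34.1 (SD, n = 3). Its ovary mean was 22643, 91.3-fold above the VG mean, and each VG library was far below it. The receptor took 0.212% of the summed ovary means. Its VG mean was 1.10% of its ovary mean. For the 16 germ line markers this percentage ran from 0 to 106% with a median of 0.736%, and it was below that of the receptor for 9 and above it for 7. The 7 above it all carry a tudor annotation, as do some of those below. Oskar was at 0.152%, nanos at 0.189%, vasa (Nasvi2EG015483), a germ line RNA helicase, at 0.403%, and the aubergine genes at 0, 0.376 and 0.887%. These thus lay below the receptor, though without VG library a 1 aubergine gene was at 1.19%, above the receptor at 1.02%. VG library b had the highest value of several of these markers, with normalised counts of vasa of 15.3, 82.2 and 20.9 in VG libraries a, b and c. Without library b the median of the markers was 0.318% and the receptor was at 1.104%, and again 9 markers lay below it and 7 above. The part of ovary RNA in the VG value of the receptor was not tested.

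Markers of the cells that are known to make or carry these proteins were present at unequal levels. The 8 hexamerins had VG means of 0 to 28.5, summing to 86.8, and ovary means of 0.129 to 35.9, summing to 66.5, and 2 of them were listed at 0 in the VG. The 4 transferrins, iron carriers that the fat body also secretes, did not share a direction. Nasvi2EG014104 had a mean of 47428 in the VG and 311 in the ovary, whereas Nasvi2EG022174 had 202.5 in the VG and 167 in the ovary. Nasvi2EG013617 had 39.7 in the VG and 64.4 in the ovary, and Nasvi2EG014102 had 4.23 in the VG and was listed at 0 in the ovary. Of the 8 fat body markers with a mean of at least 10, 3 were at least 4-fold higher in the VG and 0 in the ovary (1 without ovary library a), and their median log2 fold change was 0.43. The 3 phenoloxidases, blood cell enzymes of melanin formation, summed to 266 in the VG and 13.3 in the ovary, and 1 of them was listed at 0 in the VG. Most of that VG sum came from Nasvi2EG014408, at 262 in the VG and 10.3 in the ovary. Of 7 haemocyte markers with a mean of at least 10, 4 were at least 4-fold higher in the VG (3 without VG library a) and 0 in the ovary. The shares of all genes were again 22.7% and 19.3%. Of these 7, 1 had a higher mean in the ovary, a peroxidasin (Nasvi2EG004690) with 240 in the VG and 483 in the ovary. Of 19 genes on the muscle list, 4 were at least 4-fold higher in the VG (3 without VG library b). The ovary count was 2, where 22.7% and 19.3% of all genes passed in these directions. That ovary count includes a myosin heavy chain annotated as non-muscle (Nasvi2EG008888), with a VG mean of 2754 and an ovary mean of 14588. The other gene was a titin (Nasvi2EG013667), with a VG mean of 26.9 and an ovary mean of 268. When the totals leave out the venom protein encoding genes, a myosin light chain kinase (Nasvi2EG016113) falls from 2.15 to 0.87 on the log2 scale. Another kinase of that name, annotated as smooth muscle (Nasvi2EG016102), moves from −1.18 to −2.46. The part of fat body or haemocytes attached to the dissected glands in the carrier values was not tested.

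The other receptors of the low-density lipoprotein receptor type were split between the tissues. Of 27 such genes, 14 reached a mean of 10, of which 5 were at least 4-fold higher in the VG and 5 in the ovary, beside 22.7% and 19.3% of all genes, and their median log2 fold change was −0.55. Without VG library b the VG count was 4, and without VG library a the ovary count was 6. When the totals leave out the venom protein encoding genes, the counts become 4 and 7, beside 14.0% and 39.1% of all genes. A gene annotated as low-density lipoprotein receptor-related protein 6 (Nasvi2EG008475), a Wnt co-receptor in mammals, had a mean of 47573 in the VG and 398 in the ovary. Of the genes annotated as low-density lipoprotein receptor-related protein 2, a receptor of many ligands in mammals, Nasvi2EG014105 had 83.8 in the VG and 1.80 in the ovary. Nasvi2EG009305, with the same annotation, had 224 in the VG and 5.19 in the ovary. Other genes with the annotations of these receptors went the other way, so that the annotation alone did not separate the tissues. Nasvi2EG008707, annotated as related protein 2, had 1.27 in the VG and 327 in the ovary. Its VG value rests on 2, 0 and 0 reads in libraries a, b and c. Nasvi2EG017049, also annotated as related protein 2, had 1.16 in the VG, from 0, 0 and 1 reads, and 27.1 in the ovary. Nasvi2EG009194, annotated as related protein 6, had 34.4 in the VG, against 465 in the ovary.

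The endocytic machinery that brings receptors and their cargo into cells lay mostly under 4-fold. All 24 genes of this list that had reads reached a mean of 10, and 0 were at least 4-fold higher in the VG and 1 in the ovary (0 without VG library b), beside 22.7% and 19.3% of all genes, with a median of −0.25. Rab11 family-interacting protein 4A (Nasvi2EG014545), of the recycling endosome, had a mean of 655 in the VG and 2713 in the ovary. Dynamin related protein 1 (Nasvi2EG001110), which acts in mitochondrial fission, had 820 in the VG and 2555 in the ovary, and amphiphysin (Nasvi2EG007944), a membrane-bending protein, had 758 in the VG, against 2243 in the ovary. The genes of this list with the highest log2 fold changes were the late endosome GTPase Rab-7a (Nasvi2EG003382) at 1.01, Huntingtin-interacting protein 1 (Nasvi2EG004908) at 0.78 and the AP-2 adaptor subunit sigma (Nasvi2EG002994) at 0.45, all of which fall below 0 when the totals leave out the venom protein encoding genes. Under that scaling 6 of the 24 genes were at least 4-fold higher in the ovary, beside 39.1% of all genes.

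Genes for assembling and loading carriers were mixed. Of 7 with a mean of at least 10, 2 were at least 4-fold higher in the VG (1 without ovary library a) and 1 in the ovary, beside 22.7% and 19.3% of all genes. When the totals leave out the venom protein encoding genes, these counts become 1 and 2, beside 14.0% and 39.1% of all genes, and the median of 0.41 falls below 0. An adipocyte-type fatty acid-binding protein (Nasvi2EG002834) had a mean of 1423 in the VG, against 93.6 in the ovary. The microsomal triglyceride transfer protein (Nasvi2EG016342), which loads lipid onto apolipoproteins in the endoplasmic reticulum, had 612 in the VG and 202 in the ovary. Among proteins of the lipid droplet surface, lipid storage droplets surface-binding protein 1 (Nasvi2EG007786) had 124 in the VG and 28.8 in the ovary. Another gene of that annotation, Nasvi2EG007790, named after its values were seen, had 3399 in the VG and 2559 in the ovary, a difference under 4-fold. Lipid storage droplets surface-binding protein 2 (Nasvi2EG007789) had 60.3 in the VG and 6864 in the ovary. Diacylglycerol O-acyltransferase 1 (Nasvi2EG006249), which completes triglyceride synthesis, had 407 in the VG and 1185 in the ovary, and a furin protease (Nasvi2EG027819), of the kind that cuts vitellogenin and lipophorin precursors, had 1898 in the VG, against 3022 in the ovary. The chaperone boca (Nasvi2EG011476), which folds receptors of this family in *Drosophila*, was listed at 0 in both tissues, as was the clathrin light chain gene, and no level is read from this.

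Genes matched by words for juvenile hormone, ecdysone and insulin signalling, which control yolk synthesis in insects, were also mixed. The list took in genes matched only by the word ecdysone, such as the zinc finger protein on ecdysone puffs. Of 12 with a mean of at least 10, 2 were at least 4-fold higher in the VG and 1 in the ovary, beside 22.7% and 19.3% of all genes, and without VG library a the counts were 1 and 2. The median of 0.21 falls below 0 when the totals leave out the venom protein encoding genes, and 5 of the 12 were then at least 4-fold higher in the ovary, beside 39.1% of all genes. A juvenile hormone esterase (Nasvi2EG016304), which breaks the hormone down, had a mean of 53.4 in the VG and 1.07 in the ovary. Its VG libraries a, b and c had 50, 12 and 11 reads, and its ovary libraries had 5, 1 and 2. A juvenile hormone-inducible protein (Nasvi2EG007218) had 14.2 in the VG and 0.544 in the ovary. Its VG libraries had 14, 4 and 2 reads, and without VG library a its VG mean was 7.93, below the minimum of 10. Insulin receptor substrate 1-B (Nasvi2EG004834) had 7086 in the VG and 2951 in the ovary, a log2 fold change of 1.26 that becomes −0.02 under that scaling. Genes with juvenile hormone or ecdysone in their annotation were also found on the ovary side. Juvenile hormone epoxide hydrolase 1 (Nasvi2EG007080), another enzyme of hormone breakdown, had 1065 in the VG, against 4289 in the ovary. The juvenile hormone esterase binding protein (Nasvi2EG014350) had 189 in the VG and 694 in the ovary, and the zinc finger protein on ecdysone puffs (Nasvi2EG028973), a nuclear protein, had 1354 in the VG, against 4187 in the ovary.

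The eggshell genes lay on the side of the receptor. All 4 genes of this list had ovary means at least 4-fold above their VG means, beside 19.3% of all genes, and their median was −6.03. They carry only the annotations nudel and chorion peroxidase. Serine protease nudel, made by follicle cells in *Drosophila*, had a mean of 18.4 in the VG and 24984 in the ovary for Nasvi2EG023071. The other nudel gene, Nasvi2EG005462, had 4.23 in the VG and 1709 in the ovary. Chorion peroxidase (Nasvi2EG008940), which cross-links the eggshell, had 35.5 in the VG and 377 in the ovary.

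**Figure D4:**
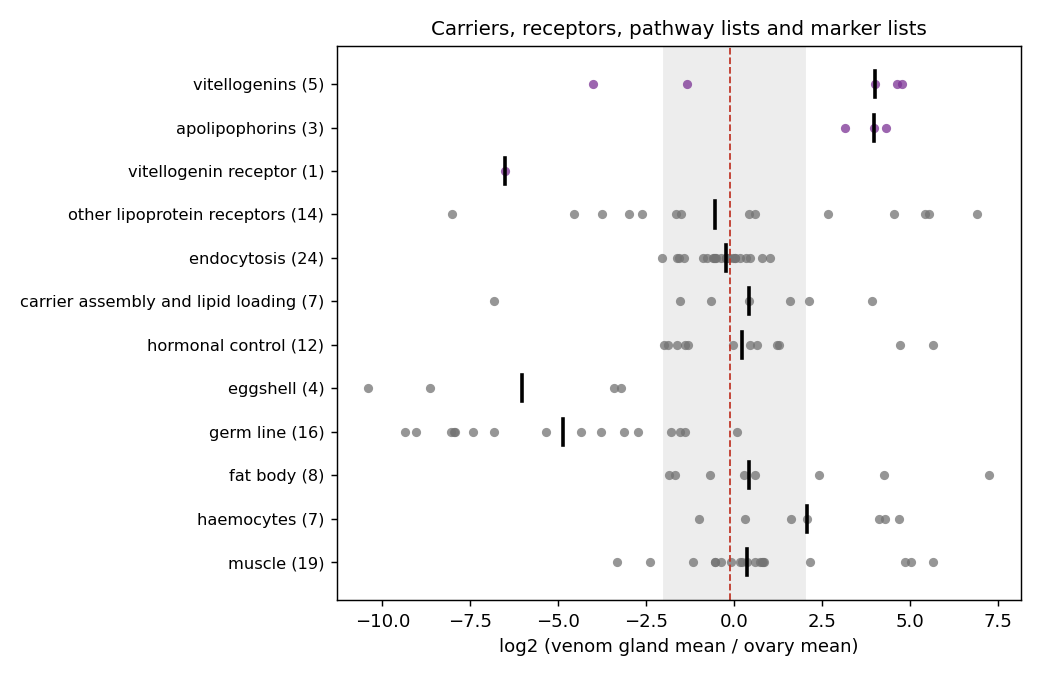
Log2 fold change (VG over ovary) of each gene with a mean of at least 10 in either tissue, by group with the number of genes in brackets, where black bars are group medians, the grey band is under 4-fold and the dashed line is the median of all genes (−0.12). The vitellogenins have a median of 3.996 and the apolipophorins of 3.96, while the eggshell genes have a median of −6.03 and the vitellogenin receptor lies at −6.51.

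The annotated genes nearest to the leading carrier and to the receptor were found by the distance between their log2 tissue means, over 2 values each and 9012 annotated genes, which is a description of levels not divided by length. Nearest to vitellogenin Nasvi2EG010626 were Nuclear protein 1 (Nasvi2EG006840) at 0.79, calreticulin (Nasvi2EG037342), which is among the listed venom genes, at 1.203, and Reticulon-1 (Nasvi2EG003084) at 1.32. Nearest to the vitellogenin receptor were Heparanase (Nasvi2EG001684) at 0.21, a putative lysyl oxidase protein 4 (Nasvi2EG003216) at 0.46, and Armadillo repeat-containing protein 5 (Nasvi2EG009219) at 0.67.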

How the data were processed

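RNA of 3 VG and 3 ovary libraries was sequenced, and per the labels the authors mapped the reads with TopHat, counted them per gene with HTSeq and normalised them with DESeq. The paper adds that counting used the exons of official gene set version 2 and strand; no genome build was used here. The deposited values are a signal, the authors' means of DESeq-normalised counts over the libraries of each tissue. The columns with the authors' fold changes and p-values were not used. The tissue of each mean was read from the headings of a supplementary file, where 1998 of 1998 genes held equal values within a relative tolerance of 1e-05.

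Genes were chosen by words in the annotation, and pathway and marker lists by keywords at the start of a word. The genes described here and the 79 venom protein encoding genes were left out of the keyword lists. The members and lists were chosen with earlier results of these data known, and the matching at word starts was set after matches and values had been seen. All members were named, with the 3 genes of each pathway list with the largest log2 fold changes in each direction and the 3 nearest annotated genes. Markers were named after their values were seen.

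A gene needed a mean of at least 10 in either tissue. A tissue at 0 was set to a floor of 3 reads over its libraries. No pseudocount was used in the main values. Reads per library were recovered where exactly 1 combination of whole reads gave the 10 significant digits of a mean and at most 0.2 combinations were expected by chance, a limit raised from 0.1 after the values were seen. Of 500 means drawn from each tissue, 497 VG means between 1 and 900 and 500 ovary means between 1 and 90 had exactly 1 combination. VG reads were recovered for 5 of the genes with reads and ovary reads for 2. At a limit of 0.1, VG reads were recovered for 4, without Nasvi2EG008331. The procedure was tested on simulated data. The libraries are pools of individuals, and their SD is the spread between pools of a tissue. Whether VG and ovary pools came from the same females is not stated. Scripts ran under Python 3.11.15 with pandas 2.3.3 and numpy 2.4.6; matplotlib 3.10.9 drew the figures and scipy 1.17.1 gave the exact test. Alternatives were no minimum, another scaling, a pseudocount of 1, a 2-fold threshold, leaving out each library, and, added after the data were seen, keyword matches inside words, the limit of 0.1, and leaving out each library for the lists and for the germ line markers beside the receptor.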

Additional observations from a re-analysis of the deposited data

How the results depend on the processing

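When the 79 venom protein encoding genes were left out of the totals, the scaling gave a carrier median of 2.70 and a receptor value of −7.79 on the log2 scale. Without a minimum level and with a pseudocount of 1, 6 genes were at least 4-fold higher in the VG and 2 in the ovary, and a 2-fold threshold gave 6 and 3. Leaving out each recovered library in turn, the counts were 6 and 2 each time, the carrier median ran from 3.85 to 4.16 and the receptor from −6.62 to −6.42. The value of Nasvi2EG001598 ran from 4.19 to 5.74, with the highest value without ovary library b, and that of Nasvi2EG001597 from −1.75 to −1.01. Nasvi2EG008331 ran from 3.70 to 4.39, and Nasvi2EG026032 from −4.04 to −4.00. In these refits a gene whose reads were not recovered kept its mean. Keywords matched inside longer words changed none of the pathway lists' counts past 4-fold, and turned the median of the assembly and loading list to −0.13. No paired analysis was possible because the table carries no replicate numbers. The exact test was run only for the 2 members with reads of each library in both tissues, and the depth of each library limits the low VG values, where 1 read adds up to 1.16 to a mean.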
